A study of Mus musculus with 12 samples.

Results

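The genes described here are 10 immediate early genes of mouse spleen: the AP-1 subunits Fos, Fosb, Fosl2, Jun and Junb, the related leucine zipper factors Atf3 and Maff, the zinc finger factors Egr1 and Egr2, and Ier3. Members were found as array probe sets annotated with 1 of these symbols. Each of the 10 had 1 such probe set, and they make up 10 of the 19938 genes measured. The 12 Affymetrix arrays, all of spleens of C57BL/6 mice, carry labels for 3 groups of 4. The first group, called septic TLR-deficient below, had colon ascendens stent peritonitis (CASP), in which a stent in the wall of the ascending colon leaks gut bacteria into the abdomen, and its sample titles name Trif and MyD88, the adaptors through which Toll-like receptors signal. The second group, septic wildtype, had CASP without a deficiency, and the third, untreated wildtype, was not treated, and most of its titles carry 0 h. The alleles, the age of the mice and the time from operation to sampling are not given in the sources used here, and there was no untreated TLR-deficient group. Values are log2 expression of whole spleen RNA, in which fewer cells of a type and less RNA per cell cannot be told apart.

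Immediate early genes are switched on within minutes of a stimulus, because the proteins that start their transcription are already present in the cell. Fos and Jun proteins pair through leucine zippers to form AP-1, which binds DNA and turns on further genes. Egr proteins bind GC-rich sites through zinc fingers, and Atf3 and Maff, which lacks an activation domain of its own, often act as brakes. In macrophages, bacterial products induce these genes through MAP kinases and NF-kappaB downstream of Toll-like receptors.

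Several arrays stood apart from their labels, and this touches every result below. Septic wildtype replicate 2 correlated with the other arrays at Pearson's r of 0.739 to 0.783 over all probe sets, where each other array reached at least 0.970 with some array. Its log2 values had an SD of 1.52, against 2.11 to 2.24 on the rest. For 8 of the 12 arrays the most similar array carried another label. The array most like septic TLR-deficient replicate 4 was septic wildtype replicate 3, the array most like septic wildtype replicate 4 was untreated replicate 1, and the array most like untreated replicate 4 was septic TLR-deficient replicate 1. The group names below therefore state what the labels say. B cell markers averaged a log2 value of 7.95 to 10.21 on the septic TLR-deficient arrays, 8.27 to 10.35 on the septic wildtype arrays and 8.13 to 9.93 on the untreated arrays. The low end of these ranges was shared by septic TLR-deficient replicates 1 to 3 (7.95 to 8.30), septic wildtype replicate 2 (8.27) and untreated replicate 4 (8.13). Among these markers Fcer2a had 4.99, 5.18 and 5.31 on the first 3 septic TLR-deficient arrays and 5.38 on untreated replicate 4, near the medians of all probe sets on those arrays, and 7.63 or more on each of the other 8.

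The stretches of 250 bases before the start sites of 6 members are shown, because they hold matches to elements through which immediate early genes are known to be driven. They come from RefSeq, build GRCm38.p6, and are written 5′ to 3′ on the strand of the gene. They cover chr12:85473640-85473889 on the plus strand for Fos, chr8:84978749-84978998 on the minus strand for Junb, chr1:191183334-191183583 on the minus strand for Atf3, chr15:79347270-79347519 on the plus strand for Maff, chr10:67537619-67537868 on the plus strand for Egr2 and chr17:35821463-35821712 on the plus strand for Ier3. Capitals mark matches to the motifs named after the sequences.
Fos: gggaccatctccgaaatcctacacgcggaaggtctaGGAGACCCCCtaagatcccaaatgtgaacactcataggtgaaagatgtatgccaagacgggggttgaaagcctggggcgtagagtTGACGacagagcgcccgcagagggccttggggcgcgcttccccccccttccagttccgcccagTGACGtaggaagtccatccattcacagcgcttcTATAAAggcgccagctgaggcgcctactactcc
Junb: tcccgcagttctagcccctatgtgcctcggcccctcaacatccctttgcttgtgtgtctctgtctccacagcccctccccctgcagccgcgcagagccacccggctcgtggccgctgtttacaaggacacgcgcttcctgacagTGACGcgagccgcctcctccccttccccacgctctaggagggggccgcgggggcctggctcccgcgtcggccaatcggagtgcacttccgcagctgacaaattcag
Atf3: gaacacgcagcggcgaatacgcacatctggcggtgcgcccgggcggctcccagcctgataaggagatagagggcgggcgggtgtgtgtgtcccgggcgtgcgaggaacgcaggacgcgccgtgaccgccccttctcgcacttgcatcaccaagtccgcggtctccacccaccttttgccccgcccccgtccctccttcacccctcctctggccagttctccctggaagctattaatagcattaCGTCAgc
Maff: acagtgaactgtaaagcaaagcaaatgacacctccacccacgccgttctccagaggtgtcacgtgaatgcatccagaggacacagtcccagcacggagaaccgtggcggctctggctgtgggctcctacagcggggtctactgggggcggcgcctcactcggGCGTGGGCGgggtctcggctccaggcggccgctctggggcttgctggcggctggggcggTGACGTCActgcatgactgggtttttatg
Egr2: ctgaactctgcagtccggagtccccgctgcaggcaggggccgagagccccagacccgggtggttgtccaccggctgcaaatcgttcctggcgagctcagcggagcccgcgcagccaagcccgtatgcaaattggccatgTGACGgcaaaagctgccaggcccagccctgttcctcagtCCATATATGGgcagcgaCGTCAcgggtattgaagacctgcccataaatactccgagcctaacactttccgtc
Ier3: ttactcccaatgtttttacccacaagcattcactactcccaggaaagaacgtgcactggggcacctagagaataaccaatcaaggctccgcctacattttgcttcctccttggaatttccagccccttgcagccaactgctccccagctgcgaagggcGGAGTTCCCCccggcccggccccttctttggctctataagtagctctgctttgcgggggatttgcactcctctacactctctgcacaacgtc

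The motifs searched were the cyclic AMP response element (CRE) TGACGTCA, its core TGACG, the AP-1 site TGANTCA, the Egr site GCGNGGGCG, the TATA box TATAAA, the CArG box bound by serum response factor, and the NF-kappaB site. Both strands were read except for the TATA box. The full element holds its own core on each strand, so the core counts include it. RefSeq windows of 9 members were searched and Egr1 was left out, so the counts below do not cover Egr1. The 9 members had 15 windows because Egr2 and Maff have several start sites, some of which overlap. The CRE core was found in 6 of these 9 members (Atf3, Egr2, Fos, Fosb, Junb and Maff; 9 of the 15 windows) and in 17.8% of all 32851 windows of the table. The NF-kappaB site was found in 5 (Fos, Fosb, Fosl2, Ier3 and Maff), against 3.90% of all windows, and the Egr site in 3 (Fosb, Fosl2 and Maff), against 4.70%. The CArG box was found in Egr2, the full CRE in Maff and the TATA box in Fos, while 1.47%, 1.55% and 7.59% of all windows held them. The AP-1 site was in none of the 9, and in 6.75% of all windows. In Fos the TATA box spans bases -33 to -28 before the start site, and CRE cores begin at -129 and -66. In Maff the full CRE spans bases -29 to -22, and in Egr2 the printed CArG box spans -72 to -63. A match is a stretch of letters and not a site shown to be bound.

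Over the 12 arrays high and low values cut across the labels. Septic TLR-deficient replicates 1 and 2 and untreated replicate 4 held most of the high values. Septic TLR-deficient replicate 4 and the first 3 septic wildtype arrays held most of the low ones. Septic TLR-deficient replicate 2 was among the 4 highest arrays for 9 of the 10 members and replicate 1 for 7, and untreated replicate 4 was for 8, where 32.9%, 32.2% and 26.8% of all genes had these arrays in those places. Septic TLR-deficient replicate 4 was among the 4 lowest arrays for all 10 members, against 30.6% of all genes. Septic wildtype replicates 1, 2 and 3 were for 7, 6 and 6 members, against 23.7%, 43.8% and 27.8% of all genes. Replicate 2 of septic wildtype was also among the 4 highest arrays for 2 members, against 49.0% of all genes.

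Ier3, an early response gene tied to cell survival, varied most. It had log2 values of 8.10, 7.11, 6.79 and 5.05 on arrays 1 to 4 of the septic TLR-deficient group, 4.79, 5.44, 4.94 and 5.54 on the septic wildtype arrays, and 6.22, 5.85, 5.66 and 7.65 on the untreated arrays. All septic wildtype values lay below all untreated ones, and septic TLR-deficient replicate 4 lay among the septic wildtype arrays. The septic wildtype values of Ier3 lay near or below the medians of all probe sets on those arrays, 5.29 to 5.54. Its range of 3.31 on the log2 scale was larger than that of 97.5% of all genes. Fosl2, Jun and Atf3 had ranges of 2.69, 2.67 and 2.64, larger than those of 92.8%, 92.6% and 92.2% of all genes, whose median range was 1.41. Without septic wildtype replicate 2 the median range of all genes was 0.75, and 99.3% of genes had a smaller range than Ier3.

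Fos, the partner of Jun in the classical AP-1 dimer, had log2 values of 6.41, 6.64, 5.95 and 4.99 on arrays 1 to 4 of the septic TLR-deficient group, 4.97, 5.67, 5.34 and 5.37 on the septic wildtype arrays, and 5.95, 6.15, 6.01 and 6.62 on the untreated arrays. The septic wildtype values were all below the untreated ones. Fosl2, which encodes Fra-2, a Fos protein that lasts longer after stimulation, had log2 values of 7.55, 8.51, 7.46 and 5.82 on arrays 1 to 4 of the septic TLR-deficient group, 6.08, 5.90, 6.51 and 6.69 on the septic wildtype arrays, and 7.19, 7.10, 6.92 and 8.12 on the untreated arrays. Here too the septic wildtype values were all below the untreated ones, and the lowest value of all 12 was that of septic TLR-deficient replicate 4.

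Fosb, a Fos relative with a truncated splice form known from neurons, differed from the others. It had log2 values of 4.75, 5.08, 4.76 and 4.75 on arrays 1 to 4 of the septic TLR-deficient group, 5.14, 5.38, 5.11 and 5.12 on the septic wildtype arrays, and 5.17, 5.29, 5.28 and 5.14 on the untreated arrays. All 4 septic TLR-deficient values lay below all 8 others, but the range over the 12 arrays was only 0.63. Its values lay near or below the medians of all probe sets on the arrays, which ran from 5.22 to 5.54. Of all genes, 6.42% had a smaller range, and 24.5% did without septic wildtype replicate 2.

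Jun, the DNA-binding partner of Fos, had log2 values of 9.03, 8.36, 7.96 and 7.25 on arrays 1 to 4 of the septic TLR-deficient group, 7.09, 6.47, 7.10 and 7.57 on the septic wildtype arrays, and 7.51, 7.77, 8.32 and 9.15 on the untreated arrays. Its septic wildtype values were low, but replicate 4 of that group passed untreated replicate 1. Junb, a Jun protein that can temper Jun, had log2 values of 6.93, 7.07, 6.96 and 5.50 on arrays 1 to 4 of the septic TLR-deficient group, 5.69, 6.65, 6.24 and 5.74 on the septic wildtype arrays, and 6.03, 6.51, 6.49 and 7.16 on the untreated arrays. For Junb, septic TLR-deficient replicate 4 stood well below the other arrays of its group, which were at 6.93 or more.

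Atf3, which restrains cytokine genes in macrophages, had log2 values of 7.91, 7.21, 6.45 and 5.95 on arrays 1 to 4 of the septic TLR-deficient group, 6.14, 5.27, 5.96 and 6.49 on the septic wildtype arrays, and 6.13, 7.06, 7.56 and 7.52 on the untreated arrays. Untreated replicate 1 lay among the septic wildtype values. Maff, a small Maf protein, had log2 values of 5.82, 5.60, 4.74 and 4.84 on arrays 1 to 4 of the septic TLR-deficient group, 4.64, 5.66, 4.88 and 4.60 on the septic wildtype arrays, and 5.13, 5.46, 5.39 and 5.88 on the untreated arrays. The groups overlapped throughout for Maff, and the high septic wildtype value was that of replicate 2.

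Egr1, the founding Egr factor, had log2 values of 6.58, 7.39, 6.40 and 5.69 on arrays 1 to 4 of the septic TLR-deficient group, 6.30, 5.51, 5.73 and 6.12 on the septic wildtype arrays, and 6.17, 7.002, 7.12 and 6.71 on the untreated arrays. Egr2, which limits T cell activation and is also needed for myelin in nerves, had log2 values of 6.16, 6.48, 6.00 and 5.75 on arrays 1 to 4 of the septic TLR-deficient group, 5.58, 5.72, 6.01 and 6.31 on the septic wildtype arrays, and 6.22, 7.04, 6.83 and 6.28 on the untreated arrays. Untreated replicates 2 and 3 were among the 4 highest arrays for both Egr genes, and untreated replicate 4, the highest array for Jun, Junb and Maff, was not among these 4 for Egr2.

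**Figure D1:**
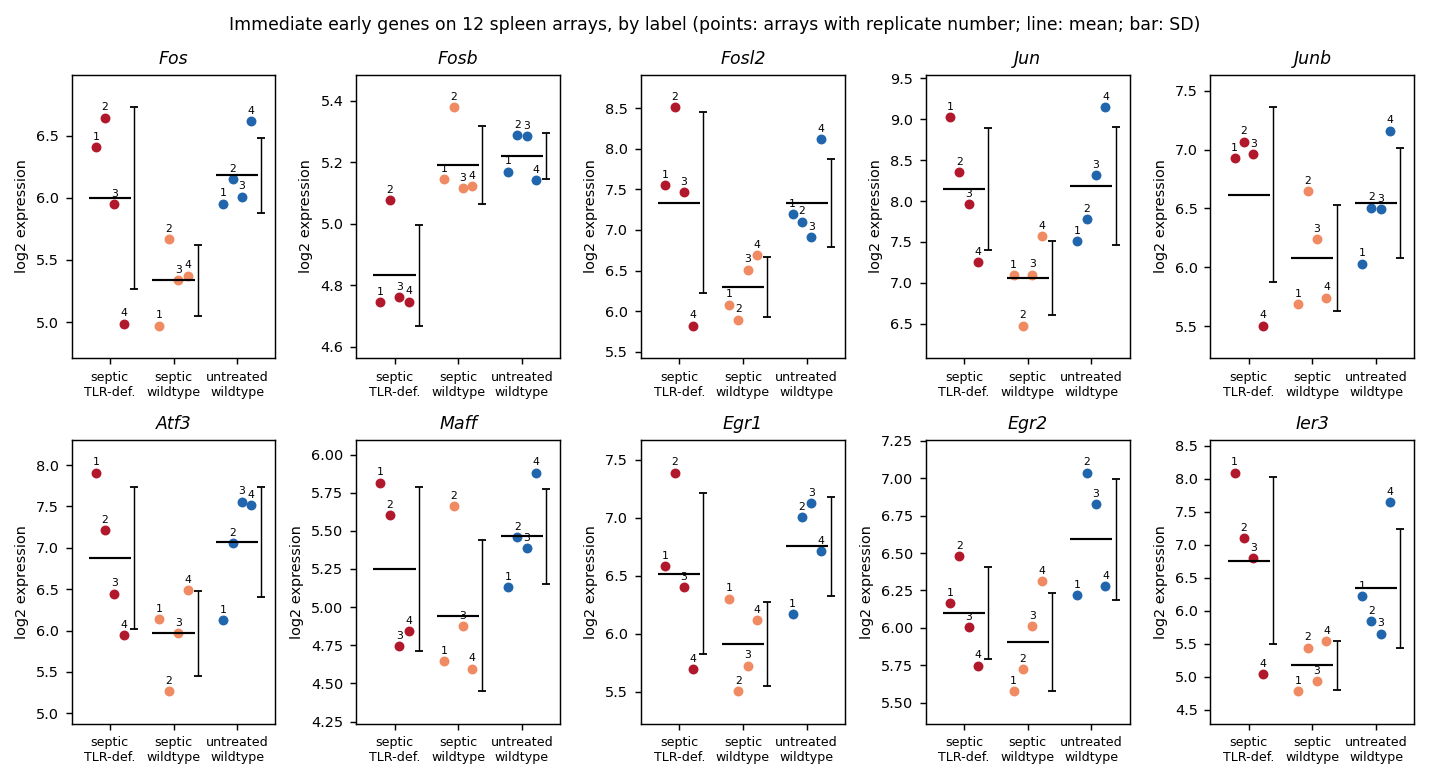
Log2 expression of the 10 immediate early genes (vertical axis, own scale per panel) on the 12 arrays by labelled group; points are arrays with their replicate number, lines are group means and bars are SD (n = 4). Septic TLR-deficient replicate 4 and untreated replicate 4 sit away from their groups in several panels, such as Ier3 at 5.05 and 7.65.

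The sample titles run from M5 to M16. The arrays were also laid out in 3 stretches of these titles, M5 to M7 with M16, M8 to M11, and M12 to M15. These stretches are not groups of the labels and were drawn with earlier results of these data in view, so only ranges are given, with no mean and no test. Ier3 ranged from 6.79 to 8.10 on M5 to M7 with M16, from 4.79 to 5.44 on M8 to M11 and from 5.54 to 6.22 on M12 to M15. Fosl2 ranged from 7.46 to 8.51, from 5.82 to 6.51 and from 6.69 to 7.19 over the same 3 stretches. The stretches did not overlap for these 2 genes, and the share of all genes for which this holds was not counted. Jun lay between 7.96 and 9.15 on M5 to M7 with M16, between 6.47 and 7.25 on M8 to M11 and between 7.51 and 8.32 on M12 to M15. For Fos these bounds were 5.95 and 6.64, 4.97 and 5.67, and 5.37 and 6.15, and for Junb 6.93 and 7.16, 5.50 and 6.65, and 5.74 and 6.51, with the stretches in the order just named. In these 3 genes M5 to M7 with M16 stood wholly above M8 to M11, while M12 to M15 overlapped at least 1 of the others. Atf3 ranged from 6.45 to 7.91, from 5.27 to 6.14 and from 6.13 to 7.56, and Egr1 from 6.40 to 7.39, from 5.51 to 6.30 and from 6.12 to 7.12. The same order held for Atf3 and Egr1. For this too the share of all genes was not counted, so neither pattern is shown to be particular to these genes. Egr2 was highest on M12 to M15, at 6.22 to 7.04, against 6.00 to 6.48 on M5 to M7 with M16 and 5.58 to 6.01 on M8 to M11. Maff ranged from 4.74 to 5.88, from 4.64 to 5.66 and from 4.60 to 5.46, and Fosb from 4.75 to 5.14, from 4.75 to 5.38 and from 5.12 to 5.29, so that all 3 stretches overlapped in both.

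**Figure D2:**
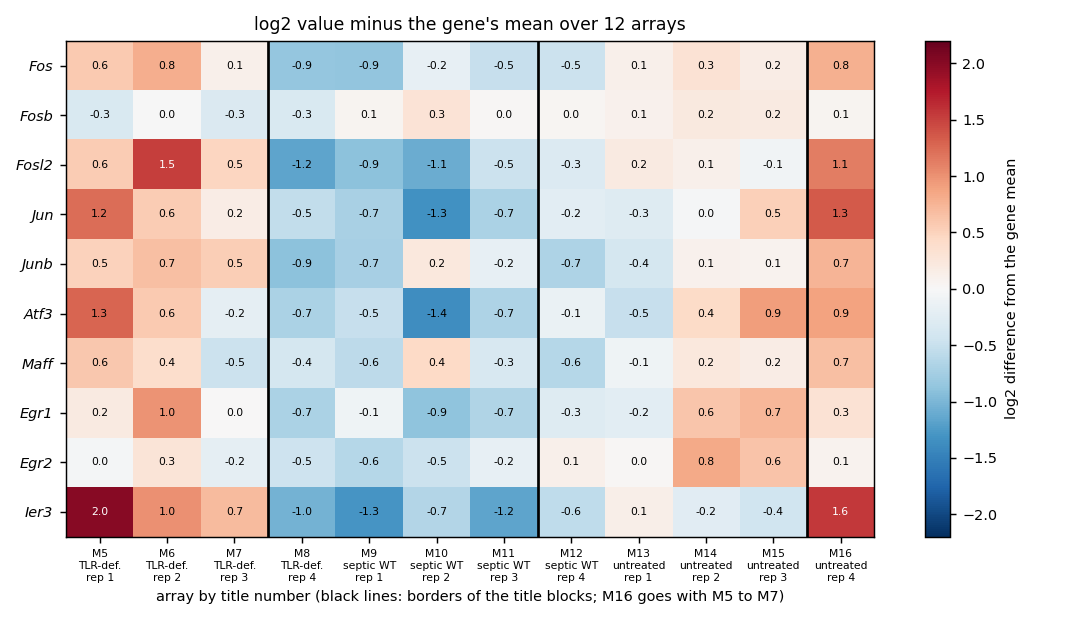
Log2 values centred on each gene's own mean of 12 arrays (colour and printed number) for the 10 genes (rows) on the arrays in order of title number (columns, with label and replicate); black lines mark the title stretches. Most genes are above their mean on M5, M6 and M16 and below it on M8, M9 and M11, and Fosb stays within a range of 0.63.

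By the labels, the first comparison sets CASP spleens with the deficiency against CASP spleens without it. With no untreated TLR-deficient group, a difference present before CASP cannot be told from one in the response to it. Mean log2 values were higher on the septic TLR-deficient arrays for 9 of the 10 members, all except Fosb, where 43.9% of all genes had a higher mean. The median difference over the members was 0.63, against -0.063 over all genes. Above percentile 50 of gene means it was 0.79 for the 8 members there and 0.23 for all genes there. Ier3 averaged 6.76 ± 1.27 on the septic TLR-deficient arrays and 5.18 ± 0.37 on the septic wildtype arrays (SD, n = 4 each), a difference of 1.58 with a 95% interval of 0.37 to 2.79. Jun averaged 8.15 ± 0.74 on the septic TLR-deficient arrays and 7.06 ± 0.45 on the septic wildtype arrays, a difference of 1.09 (interval 0.21 to 1.97). Fosl2 averaged 7.34 ± 1.12 on the septic TLR-deficient arrays and 6.29 ± 0.37 on the septic wildtype arrays, a difference of 1.04 (interval 0.049 to 2.03). These 3 genes stood furthest apart, and replicate 4 of the septic TLR-deficient group lay among or below the septic wildtype values for all 3. The differences were 0.91 for Atf3, 0.66 for Fos, 0.60 for Egr1, 0.54 for Junb, 0.31 for Maff and 0.19 for Egr2, each with an interval that includes 0. Fosb averaged 4.83 ± 0.16 on the septic TLR-deficient arrays and 5.19 ± 0.13 on the septic wildtype arrays, a difference of -0.36 (interval -0.69 to -0.023), and its groups did not overlap.

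None of these differences passed the threshold of an adjusted p of 0.05 in limma's moderated test over all genes. The lowest adjusted p among the members was 0.590, which was also the lowest of any gene. This value is a tie and gives no rank, since Junb, at an unadjusted p of 0.162 (limma), had it too. Of 19938 genes 0 (0%) were called, with 1325 at an unadjusted p under 0.05. At an unadjusted p under 0.05 stood 3 members with higher means (Fosl2, Jun and Ier3), where 4.42% of all genes did, and 1 with a lower mean (Fosb), where 2.22% did. Of the 10 members, 0 had groups that lay apart with the higher values on the septic TLR-deficient arrays and 1, Fosb, with the lower ones, against 2.05% and 1.76% of all genes. The number of members at an unadjusted p under 0.05 was 4 with all arrays, 0 without septic TLR-deficient replicate 1, 2 without septic wildtype replicate 1 and 7 without septic TLR-deficient replicate 4. Over all genes the count was 606, 1441 and 1654 in these 3 settings, and 606 to 2201 over all 12 that leave out 1 array. Leaving out replicate 4 of every group, a choice made with earlier results known, put Ier3 at 2.28 (adjusted p = 0.0180, limma) and Fosl2 at 1.68 (adjusted p = 0.0460, limma), and 141 of all genes passed. The arrays then left in each labelled group all lie in the same title stretch, so this setting cannot tell labels from stretches. Since the stretches were drawn with earlier results in view, these p-values are no support for a difference by label. The members' median difference ran from 0.42 without septic TLR-deficient replicate 2 to 0.95 without septic TLR-deficient replicate 4, and was 0.70 without septic wildtype replicate 2. In this comparison no member's difference turned its sign under the alternatives run.

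The second comparison sets septic wildtype against untreated wildtype spleens, and by the labels asks for the effect of CASP where signalling is intact. Mean log2 values were lower on the septic wildtype arrays for all 10 members, where 55.1% of all genes had a higher mean. The median difference over the members was -0.84, against 0.067 over all genes. Above percentile 50 of gene means it was -0.94 for the 8 members there and -0.31 for all genes there. Ier3 averaged 5.18 ± 0.37 on the septic wildtype arrays and 6.34 ± 0.90 on the untreated arrays (SD, n = 4 each), a difference of -1.17 (95% interval -2.38 to 0.043). Jun had a difference of -1.13 (interval -2.01 to -0.25), Atf3 of -1.10 (interval -2.03 to -0.17) and Fosl2 of -1.04 (interval -2.03 to -0.046). Fos averaged 5.34 ± 0.28 on the septic wildtype arrays and 6.18 ± 0.30 on the untreated arrays, a difference of -0.85 (interval -1.53 to -0.16). Egr1 had a difference of -0.84 and Egr2 of -0.68, both with intervals below 0, while the intervals of Maff (-0.52), Junb (-0.47) and Fosb (-0.031) include 0.

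No member passed at an adjusted p of 0.05 in limma, where 0 of 19938 genes (0%) did and 1756 had an unadjusted p under 0.05. The lowest adjusted p among the members was 0.439, the lowest of any gene. It too is a tie that gives no rank, since Maff, at an unadjusted p of 0.109 (limma), had it as well. Lower means at an unadjusted p under 0.05 were found for 6 members, namely Fos, Fosl2, Jun, Atf3, Egr1 and Egr2, where 5.92% of all genes had them. Higher means at that level were found for 0 members, against 2.89% of all genes. All septic wildtype values lay below all untreated ones for 3 members, Fos, Fosl2 and Ier3, where 2.74% of all genes showed this, and above them for 0 members, against 3.68%. The 6 members at an unadjusted p under 0.05 became 3 when replicate 1 or 2 of septic wildtype or replicate 2 of untreated was left out, and 2 without untreated replicate 4. Over all genes the count was 2227, 1086, 848 and 858 in these 4 settings, and 793 to 3193 over all 12 that leave out 1 array. The median difference over the members stayed between -0.98 and -0.75 whichever array was left out, with -0.81 without septic wildtype replicate 2 and -0.75 without untreated replicate 4. Here too no member's difference turned its sign under the alternatives run.

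**Figure D3:**
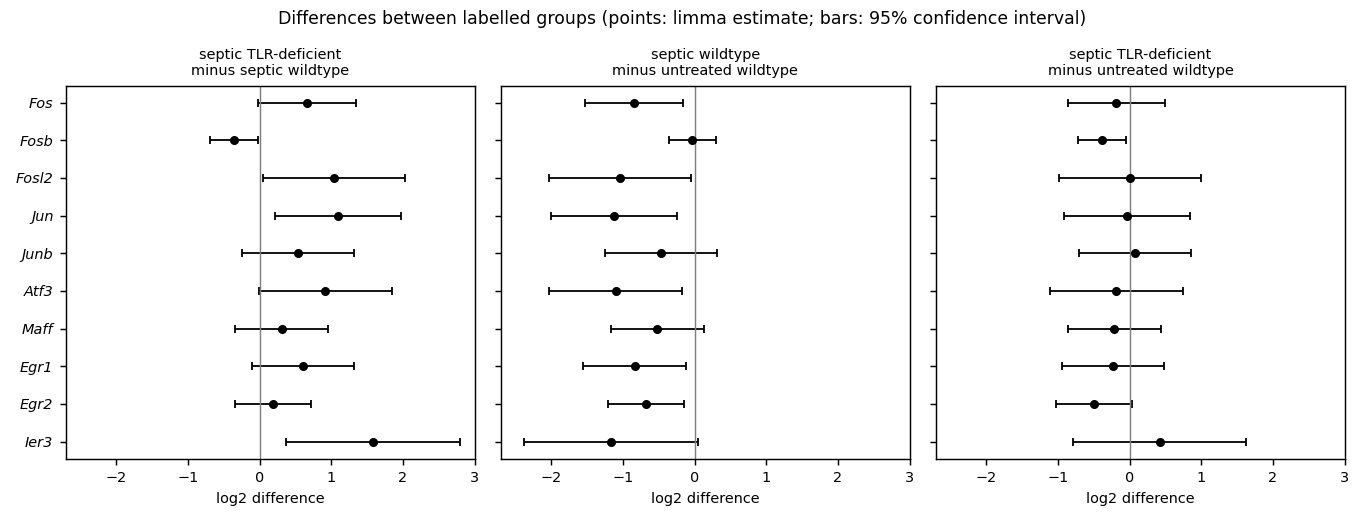
Log2 difference between labelled groups (horizontal axis; points are limma estimates, bars are 95% confidence intervals) for the 10 genes in the 3 comparisons. Ier3 has the largest positive difference of septic TLR-deficient minus septic wildtype, 1.58, and the largest negative one of septic wildtype minus untreated wildtype, -1.17, and Fosb stands apart in the first panel at -0.36.

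In the third comparison, of septic TLR-deficient against untreated spleens, both genotype and operation differ. Means were higher on the septic TLR-deficient arrays for 3 members and lower for 7, where 51.9% of all genes had a higher mean, and the median difference was -0.19, against 0.0079 over all genes. Above percentile 50 of gene means it was -0.11 for the 8 members there and -0.089 for all genes there. Fosl2 averaged 7.34 ± 1.12 on the septic TLR-deficient arrays and 7.33 ± 0.54 on the untreated arrays (SD, n = 4 each). Jun averaged 8.15 ± 0.74 on the septic TLR-deficient arrays and 8.19 ± 0.72 on the untreated arrays. The 95% intervals of these differences reached from -0.99 to 0.99 for Fosl2 and from -0.92 to 0.84 for Jun. The members' median difference was 0.14 without septic TLR-deficient replicate 4 and -0.039 without untreated replicate 4, so that leaving out the first of these arrays turned its sign. The largest differences were -0.49 for Egr2, 0.42 for Ier3 and -0.39 for Fosb. Fosb averaged 4.83 ± 0.16 on the septic TLR-deficient arrays and 5.22 ± 0.076 on the untreated arrays, with groups that did not overlap, as was so for 0.998% of all genes in that direction. In the other direction 0 members did, against 2.4%. Its unadjusted p was 0.0261 (limma), and 0.707% of all genes had lower means at an unadjusted p under 0.05. For higher means 0 members did, against 1.17%. The members at an unadjusted p under 0.05 numbered 1 with all arrays, 0 without septic TLR-deficient replicate 1, 3 or 4 or untreated replicate 2 or 3, and 2 without septic TLR-deficient replicate 2 or untreated replicate 1 or 4. Over all genes the count ran from 146 without septic TLR-deficient replicate 3 to 1225 without septic wildtype replicate 2. The adjusted p in limma was 0.99996 for each of the 10 members, and 0 of 19938 genes (0%) were called, with 375 at an unadjusted p under 0.05. Each pair of the 3 comparisons shares a group. The septic wildtype arrays enter the first and the second with opposite signs, so that a low value on them gives a positive difference in the first and a negative one in the second.

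Other genes of the pathway were set beside the members, by list. All genes had median differences of -0.063, 0.067 and 0.0079 in the 3 comparisons. These medians depend on level, and genes above percentile 50 of gene means had 0.23, -0.31 and -0.089. The list medians are to be read against both. The lists were also described without septic wildtype replicate 2, as differences of group means with no test, a setting added after seeing the data. All genes then had medians of -0.0084 and 0.024 in the first and second comparison. Of 8 other AP-1 subunits and partners, all 8 had higher means on the septic TLR-deficient than on the septic wildtype arrays, with a median difference of 0.31, and 0 passed in limma at an adjusted p of 0.05, with 2 at an unadjusted p under 0.05. Batf, an AP-1 factor of T and B cells and dendritic cells, differed most among them, at 7.69 ± 0.69 on the septic TLR-deficient arrays and 6.78 ± 0.35 on the septic wildtype arrays (SD, n = 4 each). Without septic wildtype replicate 2, 7 of the 8 had higher means on the septic TLR-deficient arrays, and Atf7 had a difference of -0.37. On the septic wildtype arrays all 8 had lower means than on the untreated arrays, with a median of -0.48 and Batf at -0.76, and all 8 did without septic wildtype replicate 2 (median -0.36). Among 3 measured Maf proteins, of which 2 had higher means on the septic TLR-deficient arrays, the difference between the septic groups was largest for Mafk, at 0.51. Higher means were also found for 2 of 4 Egr and Nab genes, and the largest difference was that of Nab1, a corepressor of Egr factors, at 0.68. Medians of these lists were 0.10 and 0.021 there. Mafk (-0.60) and Nab1 (-0.72) had the largest differences between the septic wildtype and untreated arrays, where 3 of 3 and 3 of 4 genes had lower means and the medians were -0.16 and -0.21. Nab1 stood at 6.11 on septic wildtype replicate 2 and at 7.92 or more on the other arrays of that group, and without that array its differences were 0.18 and -0.22. The 2 medians were then 0.13 and 0.0040 between the septic groups, and -0.070 and -0.19 between septic wildtype and untreated arrays. Between septic TLR-deficient and untreated arrays the leading genes were Atf7 (-0.43), Maf (-0.54) and Egr3 (-0.57), and the medians of the 3 lists were 0.037, -0.089 and -0.20. Across these 3 lists and all comparisons 0 genes passed at an adjusted p of 0.05 in limma.

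Of 24 further immediate early genes, 19 had higher means on the septic TLR-deficient than on the septic wildtype arrays, with a median difference of 0.57 and 4 at an unadjusted p under 0.05. Without septic wildtype replicate 2 it was 18 of 24, with a median of 0.31. Rgs1, a brake on chemokine receptor signalling, had the largest difference, at 7.96 ± 1.30 on the septic TLR-deficient arrays and 6.14 ± 1.44 on the septic wildtype arrays (SD, n = 4 each). Of these 24 genes, 20 had lower means on the septic wildtype than on the untreated arrays, with a median of -0.61 and 9 at an unadjusted p under 0.05, and 21 did without septic wildtype replicate 2, with a median of -0.41. Between septic TLR-deficient and untreated arrays 17 of the 24 had lower means, led by the nuclear receptor Nr4a3 at -0.79, with a median of -0.15. No gene of this list passed at an adjusted p of 0.05 in limma.

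Dual-specificity phosphatases, which switch MAP kinases off and are themselves early genes, had higher means on the septic TLR-deficient than on the septic wildtype arrays for each of 7 genes (median 0.74). Dusp1 led, with 10.80, 11.27, 10.79 and 7.55 on arrays 1 to 4 of the septic TLR-deficient group, 7.70, 6.38, 8.57 and 9.57 on the septic wildtype arrays and 9.78, 10.05, 9.36 and 11.21 on the untreated arrays. Its low array in the first group and its high array in the last were those seen for Ier3. Without septic wildtype replicate 2, 6 of 7 phosphatases had higher means on the septic TLR-deficient than on the septic wildtype arrays (median 0.64), and 6 of 7 had lower means on the septic wildtype than on the untreated arrays (median -0.45). With all arrays, all 7 had lower means on the septic wildtype than on the untreated arrays, with a median of -0.77 and Dusp1 at -2.04, and 5 of 7 had higher means on the septic TLR-deficient than on the untreated arrays, led by Dusp16 at 0.53 (median 0.079). The upstream list depended on 1 array. Of 15 measured upstream kinases and ternary complex factors 12 had higher means on the septic TLR-deficient than on the septic wildtype arrays (median 0.42) and 12 lower means on the septic wildtype than on the untreated arrays (median -0.65). The mean level of this list was 6.43 on septic wildtype replicate 2 and 7.69 to 8.10 on the other 11 arrays. Without that array 6 of the 15 had higher means on the septic TLR-deficient than on the septic wildtype arrays, and the median turned to -0.058. Between septic wildtype and untreated arrays 11 then had lower means, with a median of -0.20. Map3k8, the kinase that feeds the ERK pathway after Toll-like receptor engagement, had the largest difference in the first and second comparison with all arrays, 1.46 and -1.26. With septic wildtype replicate 2 left out its differences were 0.93 and -0.72, and the largest were those of Map2k6, -1.08 and 0.88. Map2k1 had the largest between septic TLR-deficient and untreated arrays, at -0.45 (list median -0.21). In limma 0 genes of both lists passed at an adjusted p of 0.05 in the 3 comparisons, and between the septic groups 3 phosphatases and 2 genes of the kinase list had an unadjusted p under 0.05.

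**Figure D4:**
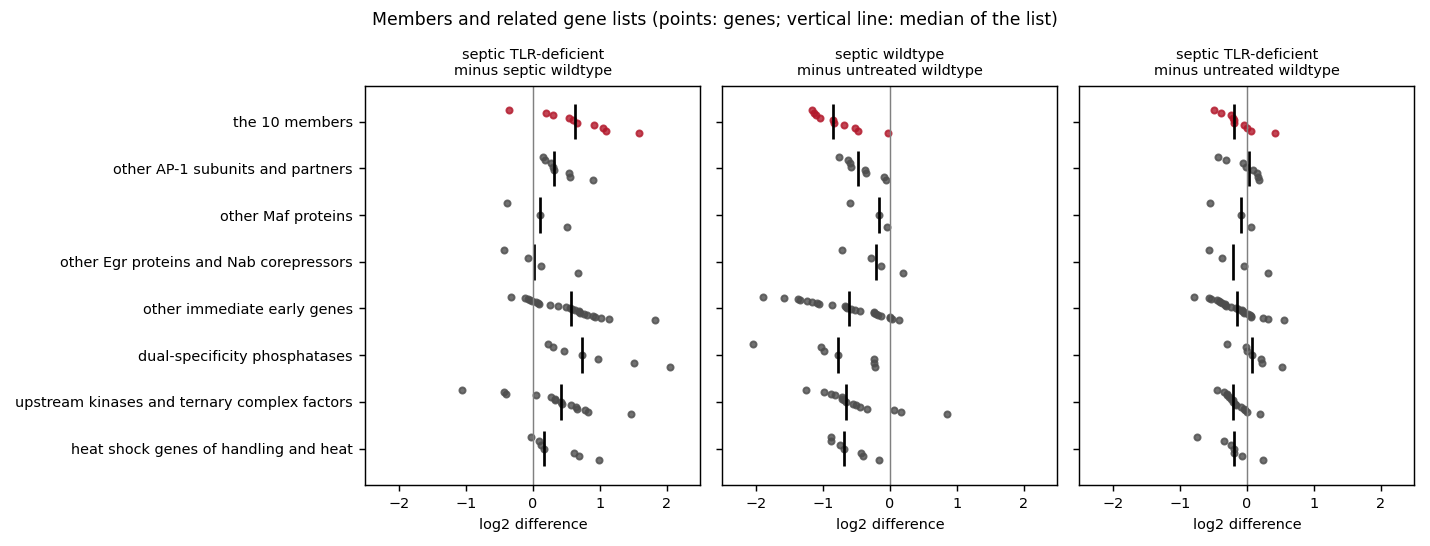
Log2 differences (horizontal axis) of the 10 members (red) and of the genes of 7 related lists (grey) in the 3 comparisons over all 12 arrays; each point is a gene and each vertical line the median of its list. The members' medians are 0.63, -0.84 and -0.19 from left to right.

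Heat shock genes, which respond to heat and handling, had a median difference of 0.17 between the septic groups, led by Hspb1 at 0.99. Between septic wildtype and untreated arrays their median was -0.69, led by Dnajb1 at -0.88, and between septic TLR-deficient and untreated arrays it was -0.19, led by Hsph1 at -0.75. Without septic wildtype replicate 2 the first 2 medians were 0.23 and -0.42, and Dnajb1 had -0.42. Of 7 measured genes 0 passed in limma at an adjusted p of 0.05 in any comparison. The mean log2 level of this list was 7.88 to 8.53 on the septic TLR-deficient arrays, 7.20 to 8.13 on the septic wildtype arrays and 8.21 to 8.44 on the untreated arrays, and its part in the members' differences was not tested.

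Mean levels of markers of other cells also differed between arrays. The neutrophil and inflammatory monocyte markers (8 of 9 measured) averaged 6.23 to 6.78 on the septic TLR-deficient arrays, 6.05 to 8.31 on the septic wildtype arrays and 5.77 to 8.58 on the untreated arrays. Their 8.31 was on septic wildtype replicate 4 and their 5.77 on untreated replicate 4, the untreated array with the highest Ier3, Jun and Fos. The pancreatic acinar markers (5 of 7) averaged 4.70 to 5.15 on the septic TLR-deficient arrays, 4.86 to 8.81 on the septic wildtype arrays and 4.63 to 9.86 on the untreated arrays. The highest 2 of these levels were on untreated replicate 2 and septic wildtype replicate 4. The erythroid markers (5 of 6) averaged 8.86 to 9.07 on the septic TLR-deficient arrays, 7.32 to 8.92 on the septic wildtype arrays and 7.20 to 8.37 on the untreated arrays. All 5 erythroid markers had higher means on the septic TLR-deficient than on the septic wildtype arrays, and none passed at an adjusted p of 0.05 in limma. The red pulp macrophage markers (6 of 6) averaged 8.29 to 9.99 on the septic TLR-deficient arrays, 8.27 to 9.86 on the septic wildtype arrays and 8.66 to 9.33 on the untreated arrays. The T cell markers (5 of 6) averaged 7.16 to 8.19 on the septic TLR-deficient arrays, 7.13 to 8.34 on the septic wildtype arrays and 7.12 to 8.39 on the untreated arrays. By array, the T cell markers averaged 7.12 to 7.30 on septic TLR-deficient replicates 1 to 3 and untreated replicate 4, 7.13 on septic wildtype replicate 2, and 7.51 to 8.39 on the other 7 arrays. The B cell markers averaged 7.95 to 8.30 on those 4 arrays, 8.27 on septic wildtype replicate 2 and 9.53 to 10.35 on the other 7, and the red pulp markers 8.29 to 8.90 on those 4, 8.27 on septic wildtype replicate 2 and 8.88 to 9.99 on the other 7. Those 4 arrays, which are the first title stretch, also held the 4 highest values of Ier3, Fosl2 and Junb. They held 3 of the 4 highest of Jun, Fos, Atf3 and Maff. Septic TLR-deficient replicate 2 and untreated replicate 4 were among the 4 highest arrays for Egr1, and the first of these for Egr2. Fosb differed, with septic TLR-deficient replicates 1 to 3 each among its 4 lowest arrays. Replicate 3 was also among the 4 lowest for Maff and Egr2. The share of all genes with their highest values on those arrays was not counted. The stromal and endothelial markers (6 of 6) averaged 7.72 to 8.48 on the septic TLR-deficient arrays, 7.002 to 8.50 on the septic wildtype arrays and 8.03 to 8.39 on the untreated arrays. The adipocyte and mesothelial markers (6 of 6) averaged 4.996 to 5.52 on the septic TLR-deficient arrays, 4.93 to 5.92 on the septic wildtype arrays and 5.15 to 5.33 on the untreated arrays. The part of all these markers in the members' differences was not tested.

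The members were also compared by their profiles, with likeness measured as the mean absolute difference of 2 genes' log2 values over 12 arrays after each gene was centred on its own mean, so that size of variation counts as well as shape. Fos was nearest to Junb among the members, at 0.22, and only 8 of the other genes were nearer to it. Jun was nearest to Atf3, at 0.20, with 11 genes nearer to Jun and 4 nearer to Atf3. Fosl2 was nearest to Fos (0.29), Maff to Junb (0.26), Egr1 to Atf3 (0.33) and Ier3 to Fosl2 (0.44). Nearer to Fosl2 than its nearest member were 16 genes, to Maff 65, to Egr1 255 and to Ier3 53. Fosb and Egr2 were each other's nearest member, at 0.31, with 958 genes nearer to Egr2. For a gene as flat as Fosb other flat genes are near by construction, and 9704 genes were nearer to Fosb.

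Among all genes, those most like Fos were Trib1 (0.15), a pseudokinase that is itself an immediate early gene, Pim1 (0.17) and Lama5 (0.17). Those most like Jun were Il33 (0.15), an alarm cytokine of stromal cells, Cpd (0.16) and Ch25h (0.18), which makes an oxysterol that blocks viral entry. Gla, Rrp1b and Batf were most like Atf3 (0.18, 0.19 and 0.20), and Creb3l1 came first for both Junb (0.16) and Maff (0.19), before Irs2 (0.20) and Sestd1 (0.22) for Junb and Gfpt2 (0.19) and Thop1 (0.20) for Maff. Fosl2 had Acer2 (0.23), Arid5a (0.23) and Gch1 (0.25), and Ier3 had Niban2 (0.22), Inhbb (0.24) and Adamts9 (0.26). Egr1 had Larp1 (0.19), Trex1 (0.21) and Foxp4 (0.21), Egr2 had Tle3 (0.14), Ccdc6 (0.14) and Tfap4 (0.15), and Fosb had Angel1 (0.10), Kcnc1 (0.11) and 2900026A02Rik (0.11). Without septic wildtype replicate 2 the first gene was again Trib1 for Fos (0.13) and Il33 for Jun (0.14), and it changed for all other members. It was then Nfkbia, the inhibitor that NF-kappaB induces, for Junb (0.13), Batf for Atf3 (0.18) and Plaur for Fosl2 (0.20). For Maff it was Tnfrsf1b (0.13), for Egr1 Armcx6 (0.17) and for Egr2 Max (0.11). For Ier3 it was A730049H05Rik (0.20) and for Fosb Slc4a8 (0.079).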

How the data were processed

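The deposited values are log2 expression per probe set of 12 mouse spleen samples on Affymetrix arrays, made by the authors with RMA in Affymetrix Expression Console, per the submitters' processing notes. As deposited, the arrays' distributions were not fully alike, with medians of 5.22 to 5.54 and a narrower spread on septic wildtype replicate 2, so a further quantile normalization was among the alternatives. Of 35557 probe sets, those with exactly 1 gene symbol numbered 21789. The one with the highest mean stood for its gene, which gave 19938 genes without a filter. All 10 members lay above percentile 25 of gene means and 8 above percentile 50, all except Fosb and Maff. Arrays have no read depth, and their number limits the precision.

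One mean per labelled group was fitted over the 12 arrays with limma 3.58.1 in R 4.3.3, two-sided, with Benjamini-Hochberg adjustment over all genes and a threshold of 0.05. The procedure was run on simulated data only as a check of the code. The simulated spread was smaller than that of these arrays, and no simulated array cut across its label. That run therefore does not show what changes could be found here. The labels speak of biological replicates but name no animals, so p-values measure the spread between these samples. The 10 members, the lists, the title stretches and the alternatives were chosen with earlier results of these data known. The members were always named, with the 3 genes most like each, and of each list any gene past the threshold or, with none, that with the largest difference. The alternatives were other normalizations, filters, probe set choices and variance settings, array weights, a replicate block and arrays left out.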

Additional observations from a re-analysis of the deposited data

Results flagged for a closer look

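Among the 30 sets of 4 arrays (10 genes in 3 labelled groups), 3 held an array whose gap to the nearest other, as a part of the group's range, was above Dixon's 95% critical value for 4 arrays, and chance flags about 1 set in 20. Fosb was at 5.08 on septic TLR-deficient replicate 2, with the other 3 arrays of that group at 4.75 to 4.76. Fosb was at 5.38 on septic wildtype replicate 2, the array with the smallest spread of log2 values, with the others at 5.11 to 5.14. Junb was at 5.50 on septic TLR-deficient replicate 4, with the others at 6.93 to 7.07.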

How the results depend on the processing

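A count of 0 does not show that genes did not differ, and fewer arrays gave more calls where arrays that stood apart were left out. Leaving out any 1 array gave 0 called genes and 0 called members in each comparison. The members' median difference then ran from 0.42 to 0.95 (septic TLR-deficient minus septic wildtype), from -0.98 to -0.75 (septic wildtype minus untreated) and from -0.36 to 0.14 (septic TLR-deficient minus untreated).

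Without replicate 4 of every group, 141, 9 and 33 genes and 2, 0 and 0 members were called in these 3 comparisons, and the third median was 0.28. With septic wildtype replicate 2 left out as well, the genes were 1002, 19 and 675, the members 5, 0 and 1, and the medians 1.08, -0.77 and 0.28. The 5 were Fos, Fosl2, Jun, Junb and Ier3, and the 1 was Ier3, at 1.42 (adjusted p = 0.0372, limma). Both choices were made with earlier results known. In both, the arrays left in each labelled group lie in the same title stretch. These calls therefore cannot tell labels from stretches and are no support for a difference by label. Array weights called 1 gene between septic wildtype and untreated arrays. Signs turned only for septic TLR-deficient minus untreated. Without replicate 4 of every group, with or without septic wildtype replicate 2, the differences were 0.30 for Fos, 0.58 for Jun, 0.27 for Atf3, 0.027 for Egr1 and 0.062 for Maff. Jun had 0.070 after a further quantile normalization and 0.12 with array weights. With 1 array left out the ranges were -0.40 to 0.15 for Fos, -0.39 to 0.51 for Fosl2, -0.33 to 0.28 for Jun, -0.10 to 0.44 for Junb, -0.53 to 0.12 for Atf3, -0.52 to 0.040 for Egr1 and -0.028 to 0.99 for Ier3. The cause was not tested.

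With the replicate block, 0 genes and 0 members were called in the 3 comparisons, and 2, 5 and 1 members had an unadjusted p under 0.05, against 4, 6 and 1 without it. Over all genes the counts were 1006, 1338 and 308 with the block and 1325, 1756 and 375 without it.
Same-numbered arrays did not deviate together (12 pairs, r of deviations from group means -0.54 to 0.14, above 0.1 in 3), so the numbers were not read as pairs.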
